A study of Homo sapiens with 4 samples.

Results

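The 8 genes described here encode the machinery through which a cell reads type I interferon: the receptor chains IFNAR1 and IFNAR2, the kinases JAK1 and TYK2, the ISGF3 subunits STAT2 and IRF9, and the interferon regulatory factors IRF1 and IRF7. They were chosen by symbol, and all 8 were found among the 13092 genes listed in either table. RNA came from RKO, a cell line established from a human colon carcinoma. One library was from cells with the genotype HADH-S overexpression and the other, CTL, from cells with the genotype WT, with 1 library each. HADH-S is an isoform of the beta-oxidation enzyme HADH, and the study asked which genes respond to it in colorectal cancer cells. No cytokine treatment, culture time, vector or clone is named in the labels.

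Type I interferons bind a receptor made of IFNAR1 and IFNAR2. TYK2 sits on the tail of IFNAR1 and JAK1 on that of IFNAR2, and once activated they phosphorylate STAT proteins. ISGF3, a complex that contains STAT2 and the DNA-binding subunit IRF9, then enters the nucleus and binds interferon-stimulated response elements. IRF1 and IRF7 act further downstream: IRF1 is a factor induced by interferons, above all interferon gamma, and IRF7 drives the genes for interferon alpha in a second wave.

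The libraries held 6963608 reads (HADH-S) and 6773421 reads (control) assigned to genes. Values are RPKM, reads scaled to the length of 1 transcript per gene and to the number of assigned reads. Levels are compared between genes on that basis, and use of other transcripts could shift them beyond the counting intervals. HADH, the overexpressed gene, was at 54.4 RPKM in the HADH-S library and at 26.5 RPKM in the control, in the direction of the labels. This is 1 value for the whole gene, so the HADH-S isoform is not separated from other HADH transcripts. Of 9 colon epithelial markers 4 were listed, with KRT18 at 93.8 against 91.7 RPKM, EPCAM at 9.57 against 8.20, CDX2 at 4.37 against 3.60 and KRT8 at 2.81 against 2.54, while CDH1, KRT19, KRT20, LGALS4 and VIL1 were not listed. Of 8 leukocyte markers only CD68 was listed, at 478 against 389 RPKM, and the defining leukocyte gene PTPRC was not. Of the plasmacytoid dendritic cell, fibroblast and endothelial markers, 4 of 15 were listed: EGFL7 at 58.6 against 48.6 RPKM, and SPIB, LUM and COL1A1 at no more than 1 read per library. In bulk RNA, fewer cells expressing a gene and less RNA per cell cannot be told apart.

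All 8 genes were read in control cells, where the receptor chains and kinases were each more abundant than the 4 transcription factors. In the control library the order of levels was JAK1 (31.5 RPKM), IFNAR1 (21.4), IFNAR2 (13.5), TYK2 (13.05), IRF9 (6.72), STAT2 (6.27), IRF7 (2.45) and IRF1 (2.37). Neighbours in this order did not differ beyond counting error for IFNAR2 and TYK2, for IRF9 and STAT2, and for IRF7 and IRF1. In the HADH-S library IRF9 moved from place 5 to place 2, and the order was JAK1 (29.4 RPKM), IRF9 (21.5), IFNAR1 (19.2), TYK2 (17.1), IFNAR2 (11.4), STAT2 (8.998), IRF7 (4.83) and IRF1 (3.03). There, only IRF9 and IFNAR1 were neighbours whose levels did not differ beyond counting error (ratio of levels 1.12, interval 0.962 to 1.29). Summed over the 8 genes, the level was 115 RPKM in overexpressing cells and 97.2 RPKM in control cells. Most of that difference lay in IRF9, at 21.5 against 6.72 RPKM, and 3 of the 8 values were lower with HADH-S.

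**Figure D1:**
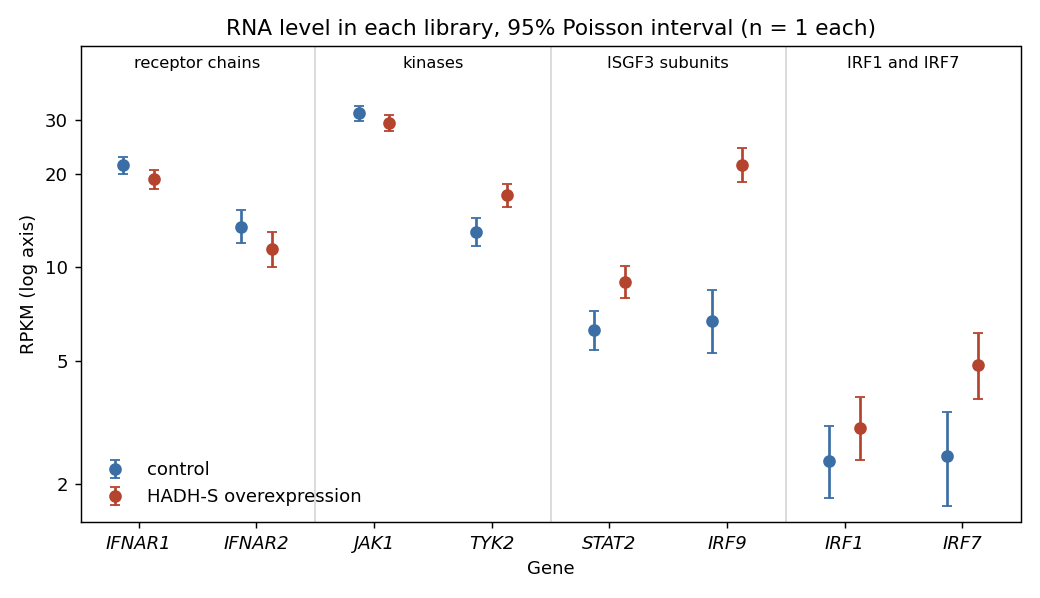
RPKM (log axis) of each of the 8 genes in the control library (blue) and the HADH-S library (red), with bars for the exact 95% Poisson interval of the reads. The IRF9 points lie farthest apart, at 6.72 and 21.5 RPKM, while the bars of IFNAR1, IFNAR2, JAK1 and IRF1 overlap between libraries.

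With HADH-S, IRF9 was about 3.19 times as abundant as in the control, and IRF7, STAT2 and TYK2 were higher by smaller factors. JAK1 and both receptor chains had ratios slightly below 1, and IRF1 had one above 1 that counting error could give. The comparison used the log2 value, the log2 ratio of RPKM + 1 in the HADH-S library to RPKM + 1 in the control library, which understates the change of low genes. By a rule of size, a log2 value of at least 1, IRF9 alone of the 8 genes was higher, against 0.3% of the 10331 genes whose mean RPKM reached 1. At a fold of 1.5 (log2 scale) IRF7 joined it, against 1.47% of all genes. None of the 8 was lower by that rule (-1 or less), against 0.0484% of all genes. The ratio of RPKM carries an exact conditional 95% interval that covers counting error only. It lay above 1 for IRF9, IRF7, STAT2 and TYK2, that is 4 of 8, against 13.8% of all genes, and below 1 for IFNAR1, 1 of 8, against 11.6%. With libraries rescaled to equal RPKM totals, the intervals of IFNAR2 (0.693 to 0.994) and JAK1 (0.844 to 0.9997) also lay below 1. That scaling lowered the median log2 value of all genes from 0.01 to -0.01, and no share of all genes was computed under it. All 8 genes passed the filter on low values. The median log2 value was 0.31 over the 8 genes and 0.01 over all 10331.

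There were no replicates, so no difference has a replicate check and no test between conditions exists. Across 9419 genes with at least 100 reads over both libraries, the spread of log ratios was 1.78 times that of counting error alone. With intervals widened by that factor, chosen after seeing the data, those of IRF9 (2.01 to 5.08), STAT2 (1.03 to 1.999) and TYK2 (1.03 to 1.66) lay above 1, against 3.36% of all genes. Those of IRF7 (0.9495 to 4.10) and IFNAR1 (0.760 to 1.07) included 1, so that 0 of the 8 lay below 1, against 2.55% of all genes.

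**Figure D2:**
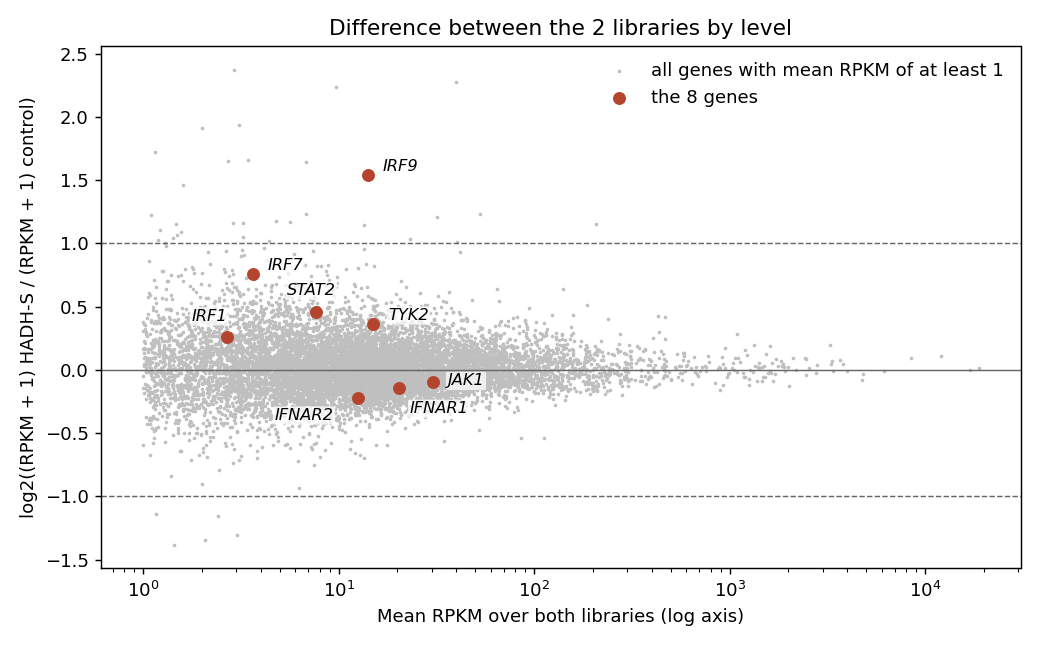
The log2 value of each of the 10331 genes (grey) against its mean RPKM over both libraries (log axis), with the 8 genes in red, a solid line at 0 and dashed lines at the rule of size. IRF9 lies at 1.54, above the dashed line at 1, while the 3 negative values, IFNAR2, IFNAR1 and JAK1, lie within the grey cloud.

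Both receptor chains had ratios below 1, and for IFNAR1 the counting interval did not reach 1 unless widened (0.760 to 1.07). An interval below 1 for 1 of the 8 genes is near the share over all genes, 11.6%, and is no result about the receptor. IFNAR1 (ENSG00000142166, chr21:33324395-33359864 in GRCh38.p14), the chain that carries TYK2, was at 19.2 RPKM in overexpressing cells and 21.4 RPKM in control cells, from 814 and 879 reads. Its ratio was 0.901 (interval 0.818 to 0.992) and its log2 value -0.14, and 18.8% of all genes had a log2 value at least as low. IFNAR2 (ENSG00000159110, chr21:33229938-33265664), the high-affinity chain that carries JAK1, was at 11.4 RPKM in overexpressing cells and 13.5 RPKM in control cells, from 231 and 266 reads. Its ratio was 0.845, with an interval of 0.705 to 1.01 that included 1. Both differences were small, and values as low as that of IFNAR2 (-0.23) were found in 9.25% of all genes. IFNAR2 reads were assigned to a transcript of 2899 nt with a coding sequence of 1545 nt, so shorter and soluble forms of the receptor are not separated. In RefSeq, IFNAR2 also shares its bounds with the readthrough gene IFNAR2-IL10RB.

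The proportion of the chains to each other differed by less than counting error. IFNAR1 exceeded IFNAR2 by a factor of 1.68 (interval 1.45 to 1.95) within the HADH-S library and of 1.58 (1.37 to 1.82) within the control. Such a ratio within a library does not depend on how libraries are scaled. The quotient of both was 1.07 (interval 0.868 to 1.31), which included 1.

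All 4 receptor chains for interferon gamma and lambda had negative log2 values as well. IFNGR1 was at 9.94 RPKM with HADH-S against 11.6 in the control, IFNGR2 at 33.4 against 39.1, and IFNLR1, the lambda-specific chain, at 1.98 against 2.52. IL10RB, the chain that interferon lambda shares with interleukin 10, was at 18.4 against 21.1 RPKM. All 4 ratios lay between 0.786 and 0.874, and the interval was below 1 for IFNGR2 alone (0.746 to 0.979), 1 of 4 against 11.6% of all genes. A negative log2 value was found for 4935 of the 10331 genes.

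The kinases differed from each other in direction. JAK1 (ENSG00000162434, chr1:64833229-65067746), the most abundant of the 8 genes in both libraries, was at 29.4 RPKM in overexpressing cells and 31.5 RPKM in control cells, from 1074 and 1118 reads. Its ratio of 0.934 had an interval of 0.859 to 1.02, which included 1. TYK2 (ENSG00000105397, chr19:10350533-10380572) was at 17.1 RPKM in overexpressing cells and 13.05 RPKM in control cells, from 505 and 375 reads. It was therefore 31.0% higher, with a ratio of 1.31 (interval 1.14 to 1.501), and 5.99% of all genes had a log2 value at least as high as its 0.36. JAK1 exceeded TYK2 by a factor of 2.41 (2.14 to 2.72) in the control and of 1.72 (1.55 to 1.92) with HADH-S, and these intervals did not overlap. The quotient, 0.713 (interval 0.607 to 0.838), was free of the scaling between libraries.

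Among 7 other JAK and STAT genes, 5 reached a mean RPKM of 1, and their median log2 value was -0.03. STAT3, which carries interleukin 6 signals, was at 14.0 RPKM with HADH-S against 15.9 in the control (ratio 0.876, interval 0.774 to 0.992), the 1 interval of the 5 that lay below 1, and 0 lay above. Over all genes these shares were 11.6% and 13.8%, so 1 of 5 is no result about this list. JAK2, a kinase of the interferon gamma receptor, was at 3.70 against 4.13 RPKM, and STAT5B at 9.39 against 9.01 RPKM. Intervals of both included 1.

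The ISGF3 subunits were both higher with HADH-S, IRF9 far more so than STAT2. IRF9 (ENSG00000213928, chr14:24161265-24166565) was at 21.5 RPKM in overexpressing cells and 6.72 RPKM in control cells, from 243 and 74 reads. Its ratio was 3.19 (interval 2.45 to 4.20) and its log2 value 1.54, and 10 of the 10331 genes, IRF9 included, had one at least as high. Among the genes with at least 100 reads over both libraries, 4 did, IRF9 included. STAT2 (ENSG00000170581, chr12:56341597-56360107), which brings the activation domain to the complex, was at 8.998 RPKM in overexpressing cells and 6.27 RPKM in control cells, from 276 and 187 reads. It was 43.6% higher (ratio 1.44, interval 1.19 to 1.74), and its log2 value of 0.46 was matched or exceeded by 3.19% of all genes.

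In control cells the subunits were about level, with an IRF9 to STAT2 ratio of 1.07 (interval 0.808 to 1.41). With HADH-S, IRF9 exceeded STAT2 by a factor of 2.39 (1.999 to 2.84). The quotient of these ratios was 2.22, with an interval of 1.60 to 3.11. The summed level of both was 12.99 RPKM in the control library and 30.5 RPKM in the HADH-S library.

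**Figure D3:**
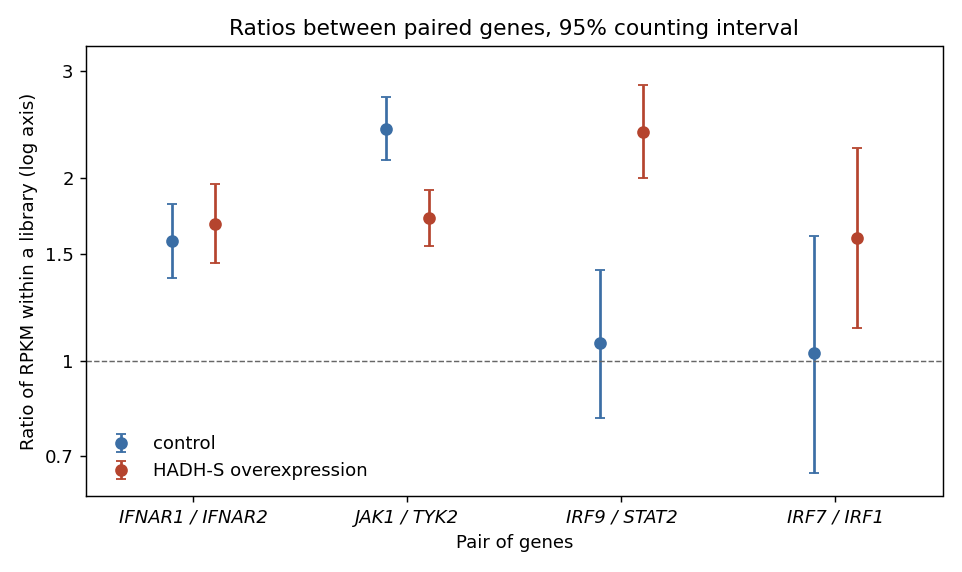
Ratio of RPKM between paired genes within the control library (blue) and the HADH-S library (red), on a log axis, with exact 95% counting intervals and a dashed line at equal levels. The JAK1 to TYK2 ratio was 2.41 and 1.72 and the IRF9 to STAT2 ratio 1.07 and 2.39, while intervals overlapped for both other pairs.

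Interferon is known to act on its target genes through short DNA elements in their promoters. Those of IRF9 and STAT2 are shown as the pair with the highest summed ratio, and that of IRF1 for comparison. The bases are the 250 before each RefSeq start (GRCh38.p14), 5′ to 3′ on the gene's strand, and 6 of the 8 genes had an entry in the promoter table. Capitals mark matches on either strand to GAANNGAAA, a tandem repeat found in interferon-stimulated response elements, or to TTCNNNGAA, the gamma-activated site bound by STAT dimers; the 2 motifs may overlap, but none of the matches shown did. The windows are IRF9 at chr14:24161015-24161264 (plus strand), STAT2 at chr12:56360108-56360357 (minus strand) and IRF1 at chr5:132490774-132491023 (minus strand).
IRF9: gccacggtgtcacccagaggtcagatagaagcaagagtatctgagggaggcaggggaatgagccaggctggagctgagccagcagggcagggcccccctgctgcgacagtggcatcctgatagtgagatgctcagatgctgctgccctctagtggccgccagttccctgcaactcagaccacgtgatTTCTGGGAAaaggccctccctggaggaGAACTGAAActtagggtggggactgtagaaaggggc
STAT2: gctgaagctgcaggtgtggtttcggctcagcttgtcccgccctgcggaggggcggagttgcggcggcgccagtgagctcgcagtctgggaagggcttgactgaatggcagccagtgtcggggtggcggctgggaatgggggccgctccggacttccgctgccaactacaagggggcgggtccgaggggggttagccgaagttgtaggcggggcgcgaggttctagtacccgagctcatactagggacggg
IRF1: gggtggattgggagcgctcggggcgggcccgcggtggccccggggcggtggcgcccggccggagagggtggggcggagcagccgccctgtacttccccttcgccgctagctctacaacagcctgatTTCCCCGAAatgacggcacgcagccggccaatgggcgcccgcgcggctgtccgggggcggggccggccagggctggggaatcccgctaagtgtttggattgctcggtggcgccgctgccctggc
IRF9 held 1 match to the gamma-activated site, from base -63 to -55, and 1 to the response element repeat, from base -36 to -28, counted back from the start. IRF1 held 1 match to the gamma-activated site, from base -124 to -116, and STAT2 held none to either. Of 34788 different windows of this length in the table, 6.56% held GAANNGAAA and 6.57% TTCNNNGAA. The windows of JAK1 (3), TYK2 (1) and IFNAR1 (2) held no match, which says only that these letters are not in them.

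Genes most like the ISGF3 subunits were sought among protein-coding genes with a mean RPKM within 2-fold and at least 100 reads, by the difference in log2 value between these libraries. For IRF9 the closest of 4182 genes were TMEM238 (log2 value 1.14), ID1 (1.04), an inhibitor of basic helix-loop-helix factors, and ALKBH6 (0.96). The nearest of these 4182 lay 0.40 below IRF9. Genes outside these limits came closer, among them CDK3 (1.16) and the interferon-induced genes IFITM1 (1.65), IFIT3 (1.23) and MX1 (1.21). They were named after their values were seen, and the genes that came closer were not counted. For STAT2 the closest of 3823 genes were CDR2L, DDX60L and ADCY6, each with a log2 value of 0.46. DDX60L was at 6.54 RPKM with HADH-S against 4.49 in the control.

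IRF7 was higher with HADH-S when judged against counting error alone, at a low level, and IRF1 was not separated from counting error. IRF7 (ENSG00000185507, chr11:612555-615950) was at 4.83 RPKM in overexpressing cells and 2.45 RPKM in control cells, from 69 and 34 reads. Its ratio was 1.97 (interval 1.29 to 3.07, or 0.9495 to 4.10 when widened, which includes 1), and its log2 value of 0.76 was reached by 0.668% of all genes. IRF1 (ENSG00000125347, chr5:132481609-132490773) was at 3.03 RPKM in overexpressing cells and 2.37 RPKM in control cells, from 75 and 57 reads. Its ratio of 1.28 had an interval of 0.895 to 1.84, so a difference was not detectable at this depth, and 11.8% of all genes had a log2 value at least as high as its 0.26. The IRF7 to IRF1 ratio was 1.03 (0.655 to 1.61) in the control and 1.59 (1.13 to 2.24) with HADH-S, and the quotient, 1.54, had an interval of 0.873 to 2.74 that included 1. Set against IRF1 in the same way, IRF9 gave a quotient of 2.496 (1.58 to 3.93), and set against IRF7 one of 1.62 (0.960 to 2.69). In all, 6 such pairs were computed.

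Of the other interferon regulatory factors, IRF2, IRF3 and IRF5 were listed and IRF4 and IRF8 were not. IRF3, the factor that starts transcription of interferon beta after nucleic acid sensing, was at 30.0 RPKM in overexpressing and 22.8 RPKM in control cells (ratio 1.32, interval 1.11 to 1.56). That interval covers counting error alone, and it was the 1 of 3 above 1, against 13.8% of all genes. IRF2, which can antagonise IRF1, was at 10.9 against 12.6 RPKM, and IRF5 at 7.06 against 6.37 RPKM, both with intervals that included 1. IRF3 was thus more abundant than any of IRF1, IRF7 and IRF9 in both libraries.

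Ligand RNA was near the limit of detection. Of 22 interferon genes, IFNB1 had 2 reads and IFNE 4 reads with HADH-S, both had 0 in the control, and the other 20 were not listed in either table. At 0 reads the control allows up to 0.528 RPKM of IFNB1 and 0.300 RPKM of IFNE, the level of 3 reads. IFNB1 was at 0.342 RPKM and IFNE at 0.389 RPKM with HADH-S, and the counting intervals of both ratios included 1, so a difference was not detectable at this depth.

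Negative regulators of the pathway centred near no difference. Of 22 such genes 20 reached a mean RPKM of 1, with a median log2 value of 0.01. Intervals lay above 1 for 4 of them and below 1 for 2, close to the shares over all genes, 13.8% and 11.6%. USP18, a protease that binds IFNAR2 and dampens signalling, was at 11.2 RPKM in overexpressing and 6.12 RPKM in control cells (ratio 1.83, interval 1.38 to 2.45). SOCS1, an inhibitor of JAK kinases, was at 1.85 against 0.662 RPKM, from 23 and 8 reads (ratio 2.80, interval 1.21 to 7.23). It passed the filter only through the HADH-S library, and without it 3 of 19 intervals lay above 1. PRKD2, a kinase that promotes loss of IFNAR1 from the surface, was at 10.7 against 7.11 RPKM (ratio 1.51, interval 1.22 to 1.87). The remaining interval above 1 was that of IRF2BP1, and those below 1 were those of SOCS6 (0.699 to 0.981) and SOCS7 (0.671 to 0.974), named after their values were seen. CISH, a STAT5-induced inhibitor of cytokine receptors, did not reach a mean RPKM of 1 and was at 0.265 RPKM with HADH-S against 1.09 in the control, from 4 and 16 reads (ratio 0.243, interval 0.0592 to 0.754).

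Effectors induced by the pathway were mostly higher with HADH-S, also among those at 1 RPKM or more in both libraries. Of 35 such genes 29 reached a mean RPKM of 1, and this list was drawn up with earlier results of these data known. All 29 log2 values were positive, against 5396 of the 10331 genes. Intervals lay above 1 for 28 of them, against 13.8% of all genes. The rule of size was passed by 11, against 0.3% of all genes, and the median log2 value was 0.70. Of the 29, 6 (IFI44, IFIT2, MX2, OAS1, OAS2 and RSAD2) were under 1 RPKM in the control and passed the filter only through the HADH-S library, so they had to differ, and 5 of them are among the 11. Of the 23 genes at 1 RPKM or more in both libraries, 22 had an interval above 1, 6 passed the rule of size, and the median was 0.65. The highest log2 values were those of OAS1 (2.37, from 65 reads against 3), IFI6 (2.27) and IFIT1 (2.24). The log2 values of IRF9 and of IRF7 (0.76, from 69 and 34 reads) exceeded both medians. Those of STAT2, TYK2 and IRF1 were below both. The counting interval of the IRF7 ratio (1.29 to 3.07) included the median ratio of the 29 effectors, 1.84, so IRF7 was not separated from it.

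**Figure D4:**
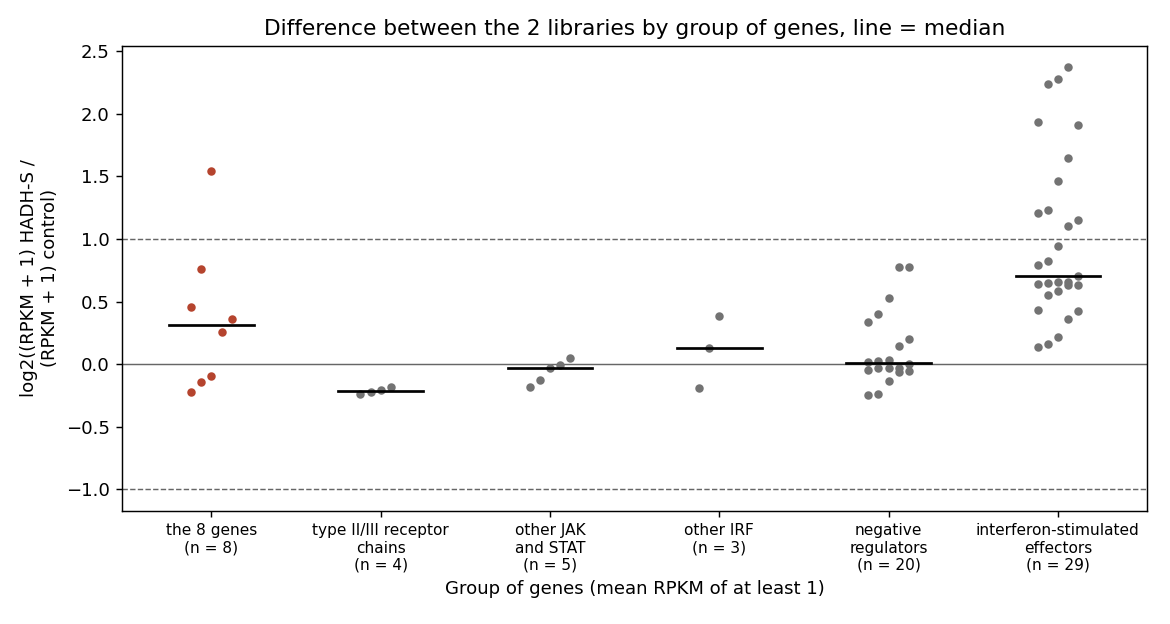
The log2 value of each gene whose mean RPKM reached 1, by group, with a black line at the group's median and dashed lines at the rule of size. The 8 genes (red) run from -0.23 to 1.54, the 4 type II and III receptor chains lie below 0, negative regulators centre on 0.01 and effectors on 0.70, including 6 that passed the filter only through the HADH-S library.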

How the data were processed

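RNA from 2 libraries was analysed, 1 per condition; 2 chromatin libraries were not analysed here. The authors deposited 1 RPKM value per gene and library, per the file headers, for 1 transcript per gene. Per the submitters' processing notes, shared by all samples, fastp 0.23.2, SAMtools 1.9, MACS2 1.4.2, ChIPseeker and GRCh38 were used. The RNA aligner, counter, strand setting and annotation are not given in the labels or file headers, so overlapping genes cannot be told apart.

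RPKM times transcript length came out as whole reads for 100% of values, within 0.01 reads. Genes missing from 1 table were taken as 0 reads there. Log2 values used a pseudocount of 1 RPKM and genes whose mean RPKM reached 1. Intervals (95%; Clopper-Pearson, Poisson, or conditional odds ratio) cover counting error only, and without molecular identifiers, reads are not independent molecules. Python 3.11.15, NumPy 2.4.6 and SciPy 1.17.1 were used, and the steps were tested on simulated reads. Those reads varied by counting error alone, so the test does not cover the wider spread of these libraries, 1.78 times that error. Gene bounds and promoters are RefSeq GRCh38.p14.

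The members and lists were chosen with earlier results of these data known. The genes named are the 8 members, HADH, up to 3 genes of each list with the largest absolute log2 value and the 3 most like IRF9 and STAT2. IL10RB, IRF2BP1, SOCS6, SOCS7, CISH and CDK3, and markers of cell types, are named outside this rule. So are the effectors IFI44, IFIT2, IFIT3, IFITM1, MX1, MX2, OAS2 and RSAD2. Some genes of the pathway lists are not reported here and enter no list count. Alternatives were other pseudocounts, scalings, filters, a fold of 1.5, a length trend, and 99% and widened intervals.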

Additional observations from a re-analysis of the deposited data

How the results depend on the processing

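No paired analysis was possible because each condition had 1 library, and for the same reason none could be left out. Log2 values moved by less than their counting intervals under other pseudocounts, scalings and removal of a length trend: IRF9 ran from 1.18 to 1.66, IRF7 from 0.40 to 0.95, STAT2 from 0.31 to 0.51 and TYK2 from 0.29 to 0.39, while IFNAR1, IFNAR2 and JAK1 were negative under each. HADH ran from 0.91 to 1.03. IRF9 passed the rule of size under each of these. At a fold of 1.5, 2 members were higher, IRF9 and IRF7. The number of members with an interval below 1 was 0 with 99% intervals, 0 with widened intervals and 3 with equal RPKM totals, where IFNAR2 and JAK1 joined IFNAR1. Of the other pathway genes, 33 had an interval above 1 and 4 had one below. With 99% intervals these counts were 31 and 0, and with widened intervals 24 and 0. Effectors gave 28 of the 33, from 29 genes, and the 32 other genes gave 5 above and 4 below. Of these genes, 6 effectors and SOCS1 passed the filter only through the HADH-S library, so they had to differ. Without them, 22 of 23 effectors and 3 of 19 negative regulators had an interval above 1. Shares over all genes were 13.8% above and 11.6% below, or 3.36% and 2.55% when widened. No such share was computed for 99% intervals or for equal RPKM totals. The medians of all genes under the scalings were between -0.01 and 0.01. Depth limits IRF1 and IRF7 most, with 132 and 103 reads over both libraries.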

Other observations

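The interferon receptor genes of chromosome 21 lie next to each other, and their values were compared with those of the chromosome after they had been seen. From IFNAR2 to IFNGR2, between 33229938 and 33437516 in GRCh38.p14, 4 genes reached a mean RPKM of 1: IFNAR2, IL10RB, IFNAR1 and IFNGR2. All 4 had a negative log2 value, with a median of -0.20 and ratios from 0.845 for IFNAR2 to 0.901 for IFNAR1. Of the 89 such genes on chromosome 21, 51 had a negative value and 38 a positive one, and their median was -0.01. Among the 89, 10 had an interval below 1 and 8 had one above, where the shares over all genes were 11.6% and 13.8%.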
